A study of Mus musculus with 8 samples.

Results

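The mRNA levels of 9 genes that write, maintain, read or remove DNA methylation were followed through 4 B-cell stages sorted from the bone marrow of mice. The genes were taken by symbol from the mRNA table and comprise Dnmt1, Uhrf1, Dnmt3a, Dnmt3b, Tet1, Tet2, Tet3, Tdg and Mbd2, which are 9 of the 22298 genes listed. The rule is by symbol and sets no threshold on a measured value. All 9 symbols were found.

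The cells came from wild type C57BL/6 mice, which the study describes as females of 8-10 weeks. Live cells were sorted as pro-B (B220+IgM-CD43+), pre-B (B220+IgM-CD43-), immature B (B220+IgM+CD43-) and mature B (B220hiIgM+CD43-). No group carried a transgene or a treatment. For each stage the cells of 3 mice were pooled and gave 1 RNA library after rRNA depletion and 1 of small RNA, so the 8 libraries hold no replicates and no difference has a replicate check. No p-values are given for this reason. Intervals are 95% intervals that cover counting error only, and not the variation between mice or between library preparations.

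DNA methylation in mammals sits mainly on cytosines of CpG dinucleotides. DNMT1 copies it onto the new strand at replication, guided by UHRF1, which binds hemimethylated DNA, whereas DNMT3A and DNMT3B place methyl groups on unmethylated sites. The TET enzymes oxidise 5-methylcytosine, TDG cuts out the later oxidation products for base excision repair, and MBD2 binds methylated CpGs and recruits the NuRD complex. In B cells, TET2 and TET3 are known for opening enhancers of the immunoglobulin light chain loci during development.

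The 4 RNA libraries differed in mRNA depth. The mRNA counts summed to 867920 in pro-B, 240231 in pre-B, 223495 in immature and 849350 in mature cells, and made up 23.7%, 6.48%, 6.48% and 23.5% of the mRNA and lncRNA counts together. Counts were therefore expressed as counts-per-million values (CPM) of the mRNA total of the library, in which 3 counts equal 3.46, 12.5, 13.4 and 3.53 CPM. Of the markers of the gates, those of pro-B and mature B cells followed the labels. The summed pro-B markers were at 2321 CPM in pro-B cells and at 44.7 to 179 CPM elsewhere, and the summed mature B markers at 5708 CPM in mature cells and at 491 to 1324 CPM elsewhere. The pre-B markers were at 1278 CPM in pro-B and 1066 CPM in pre-B cells, which does not separate these stages. The immature B markers were highest in immature cells at 9504 CPM, but were also at 7530 CPM in pre-B cells. In pro-B and mature cells they were at 4337 and 5087 CPM. Markers of other cells were present too. The 6 T and NK cell markers summed to 205 CPM in pro-B cells with 5 of 6 above 0, to 0 in pre-B and immature cells, where all 6 were at 0, and to 5.89 CPM in mature cells, where 3 of 6 were above 0. The 5 plasmacytoid dendritic cell markers summed to 356 CPM in pro-B cells with all 5 above 0, and to 58.3 CPM in pre-B, 125 CPM in immature and 70.6 CPM in mature cells, with 1, 4 and 2 of 5 above 0. The 7 myeloid markers were at 678 to 858 CPM and the 6 erythroid markers at 135 to 401 CPM in the 4 libraries.

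Sequences are shown first for the start sites of the 2 maintenance genes, Dnmt1 and Uhrf1, which act together and whose levels are compared below. RefSeq (GRCm38.p6) start-site windows of 300 bases were available for 8 of the 9 genes, 13 windows in all. The letters TTTGGCGC, TTTCGCGC, TTTCCCGC and TTTGCCGC, which are versions of the consensus of the E2F family of cell cycle factors, were searched on both strands. They were chosen after these windows had been read. They occurred in 2 of the 13 windows, 1 of Dnmt1 and 1 of Uhrf1, and in 744 of all 32851 windows (2.26%). This is a description and no test, since the letters were chosen on these windows, and all 4 versions contain CG, in which the windows are rich. The Dnmt1 window lies at chr9:20952574-20952873 on the minus strand and holds the letters at bases -219 and 34 counted from the start site, and the Uhrf1 window lies at chr17:56304063-56304362 on the plus strand and holds them at base -185. Both are 1 of several RefSeq start sites of their gene, 3 for Dnmt1 and 2 for Uhrf1. Each is printed 5′ to 3′ on the strand of the gene, with the matched letters in capitals.
Dnmt1: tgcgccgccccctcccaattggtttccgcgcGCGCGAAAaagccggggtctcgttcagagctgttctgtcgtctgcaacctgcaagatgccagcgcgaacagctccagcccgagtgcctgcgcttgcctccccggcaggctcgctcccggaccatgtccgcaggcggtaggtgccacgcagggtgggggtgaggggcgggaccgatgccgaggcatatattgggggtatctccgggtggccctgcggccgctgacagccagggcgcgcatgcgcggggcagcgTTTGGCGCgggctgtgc
Uhrf1: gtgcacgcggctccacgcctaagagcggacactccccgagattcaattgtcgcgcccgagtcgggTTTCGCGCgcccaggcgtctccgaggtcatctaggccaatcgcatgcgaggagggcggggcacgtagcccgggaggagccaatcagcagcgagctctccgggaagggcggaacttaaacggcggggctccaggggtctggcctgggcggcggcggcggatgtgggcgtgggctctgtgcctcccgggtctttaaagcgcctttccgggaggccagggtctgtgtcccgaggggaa

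Both windows are rich in CpG, the substrate of the enzymes themselves, with 33 CpG dinucleotides each. Over the 13 windows of the 8 genes the median was 26, against 7 over all windows, and the ratio of observed to expected CpG was 0.694 against 0.384. The window with the most CpG belonged to Tet2 with 57, and those of Dnmt3a ranged from 18 to 47. A match of letters is a description of the window and does not show that a factor binds there.

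The second set of sequences is that of 2 miRNA families known to target DNA methyltransferase mRNAs, miR-29 for Dnmt3a and Dnmt3b and also TET mRNAs, and that of miR-148a, miR-148b and miR-152 for Dnmt1. The mature sequences are from RefSeq and were identical to the tags in the deposited table. The seed, bases 2 to 8, is in capitals.
mmu-miR-29a-3p: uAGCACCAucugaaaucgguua
mmu-miR-29b-3p: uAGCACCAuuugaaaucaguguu
mmu-miR-29c-3p: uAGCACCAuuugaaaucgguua
mmu-miR-148a-3p: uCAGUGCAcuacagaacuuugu
mmu-miR-148b-3p: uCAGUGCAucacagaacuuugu
mmu-miR-152-3p: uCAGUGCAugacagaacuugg

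The 3 miR-29 members share the seed AGCACCA, and miR-148a, miR-148b and miR-152 share CAGUGCA. Members of a family differ only downstream of the seed.

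Uhrf1, the guide of maintenance methylation, had the widest range of the 9 genes. It had 133.84 counts in pro-B, 0 in pre-B, 0 in immature and 3 in mature cells, or 154, 0, 0 and 3.53 CPM. Taking 3 counts for the pre-B library, it was 12.3-fold lower in pre-B cells than at the pro-B stage. The 95% interval of the ratio itself starts at 9.92-fold. Uhrf1 was 43.7-fold lower in mature than in pro-B cells (interval 14.6- to 215-fold). The FPKM, the deposited level per transcript length, told the same order, at 7.25 in pro-B, 0 in pre-B and immature and 0.17 in mature cells. In pre-B and immature cells Uhrf1 was not detectable at this depth, where the 95% intervals of 0 counts end at 15.4 and 16.5 CPM. In bulk libraries fewer cells with a transcript and less transcript per cell cannot be told apart.

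Uhrf1 was low also in relation to genes of the same library, which does not depend on how libraries are scaled. Of the counts of Uhrf1 and Dnmt1 together, Uhrf1 had 38.5% in pro-B cells (33.5 to 43.7%, Wilson), 0 of 19 in pre-B (up to 16.8%), 0 of 17 in immature (up to 18.4%) and 2.38% in mature cells (0.813 to 6.77%). Mki67, the gene of the proliferation antigen Ki-67, had 633.99 counts in pro-B and 76 in pre-B cells, a log2 CPM ratio of -1.21. Of 17 proliferation genes, 10 were at least 2-fold lower in pre-B cells and 2 higher. Some fell further than Mki67, such as Top2a (210 to 14 counts), Mcm4 (154 to 4) and Mcm3 (100.09 to 0). Mki67 alone therefore does not stand for the proliferation genes. Of the counts of Uhrf1 and Mki67, a pair chosen after the values were seen, Uhrf1 had 17.4% in pro-B cells (14.9 to 20.3%), against 0 of 76 in pre-B cells, for which the interval ends at 4.81%, and 0 of 38 in immature cells, for which it ends at 9.18%. In mature cells the share was 2.54% (0.868 to 7.21%). The pro-B interval lies above those of the other 3 libraries in both ratios.

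The genes whose profile over the 4 libraries was nearest to that of Uhrf1, among 4737 genes with at least 100 counts, were Cacna2d1, 2010300C02Rik and Runx2. Cacna2d1 had 129, 0, 0 and 2 counts from pro-B to mature cells, and Runx2, a transcription factor known in plasmacytoid dendritic cells, had 299, 4, 2 and 16. The summed plasmacytoid dendritic cell markers were also highest in pro-B cells (356 CPM against 58.3 to 125 CPM), as were the T and NK cell markers (205 CPM against 0 to 5.89 CPM). The part of these cells in the Uhrf1 difference was not tested.

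Dnmt1, the maintenance methyltransferase, was present in every library. It had 214, 19, 17 and 123 counts in pro-B, pre-B, immature and mature cells, or 247, 79.1, 76.1 and 145 CPM. The pre-B level was 3.12-fold lower than the pro-B level (1.95- to 5.28-fold), pre-B and immature cells had overlapping intervals, and mature cells stood between them and pro-B cells. The mature level was 1.70-fold lower than the pro-B level (1.36- to 2.14-fold). In FPKM the levels were 7.32, 1.60, 0.62 and 4.31, so that scale has the same order of pro-B, mature and pre-B cells and puts immature cells lower. The FPKM sums differed between libraries, however, at 75584 in pro-B and 23366 in pre-B cells. Relative to the median of all genes, Dnmt1 in pre-B over pro-B cells stood at -0.01 in FPKM and -1.29 in CPM. The genes nearest in profile were Ssbp3, Top2b and Sinhcaf.

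**Figure D1:**
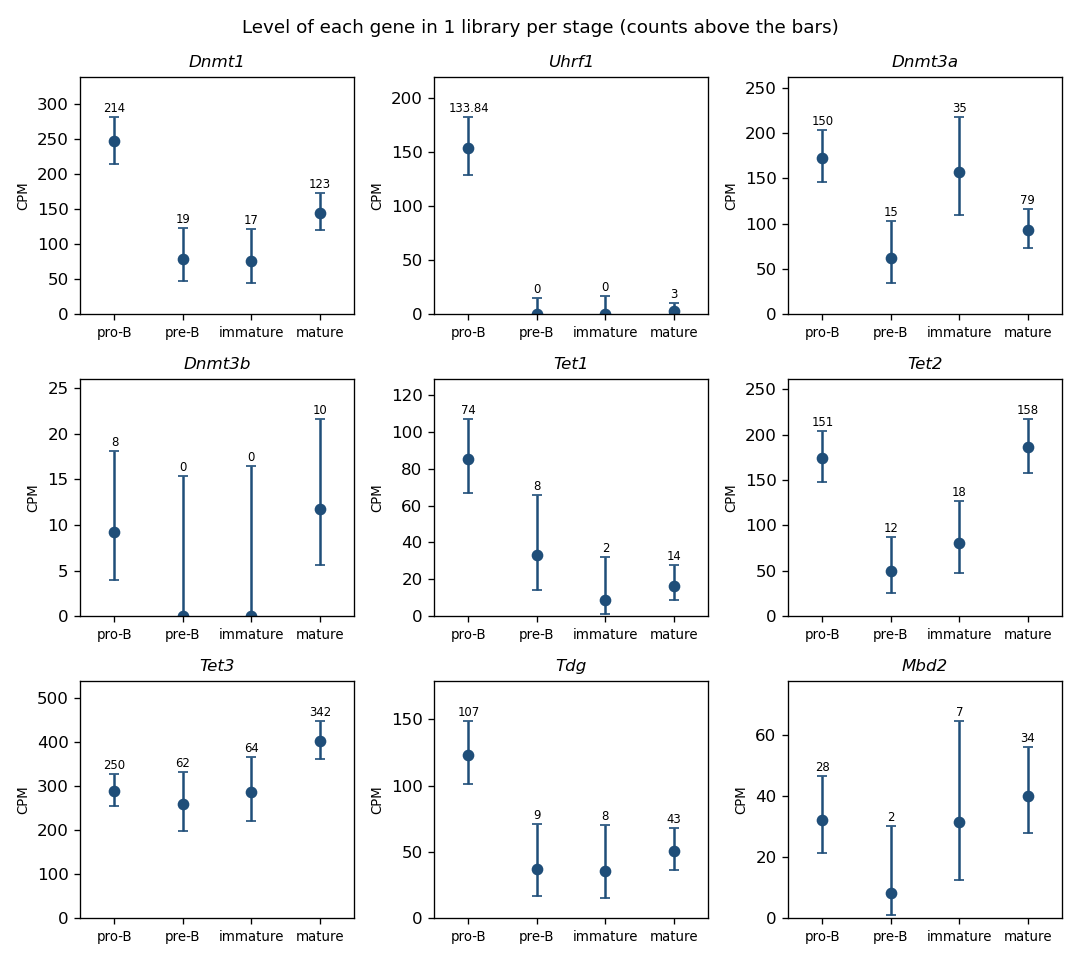
Level of each of the 9 genes in CPM (y axes, each starting at 0) in the 1 library of each stage (x axes). Points are the values, bars are 95% Poisson intervals for counting error, and the numbers are the counts. Uhrf1 is at 154 CPM in pro-B cells and at 0 to 3.53 CPM in the other libraries, while Tet3 lies between 258 and 403 CPM in all 4.

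Dnmt3a, a de novo methyltransferase, was the one gene of the 6 tested that was at least 2-fold higher in immature than in pre-B cells. Mbd2 was 3.76-fold higher (0.716- to 37.1-fold) but had too few counts to be tested. Dnmt3a had 150, 15, 35 and 79 counts, or 173, 62.4, 157 and 93.0 CPM from pro-B to mature cells. The immature level was 2.51-fold above the pre-B level (1.33- to 4.94-fold). The mature level was 1.68-fold below the immature level (1.10- to 2.54-fold) and 1.86-fold below the pro-B level (1.41- to 2.47-fold). The intervals of single levels overlapped between pro-B and immature, immature and mature, and mature and pre-B cells, and not between pro-B and pre-B, pro-B and mature, or pre-B and immature cells. The step from immature to mature cells turned to a log2 ratio of 1.11 when counts were scaled to the mRNA and lncRNA total. The deposited FPKM were 7.05, 1.32, 4.36 and 4.04, on a scale whose sums were 23544 in immature and 76880 in mature cells. With FPKM rescaled to equal sums, the log2 ratio of mature over immature cells was -1.82, against -0.75 in CPM. Relative to the median of all genes, Dnmt3a in pre-B over pro-B cells stood at -0.24 in FPKM and -1.12 in CPM.

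In counts, the balance between the mRNAs of maintenance and de novo enzymes differed in immature cells from pro-B and mature cells. Dnmt3a made up 40.3% of the counts of the 3 DNMT genes in pro-B (35.5 to 45.4%), 44.1% in pre-B (28.9 to 60.5%), 67.3% in immature (53.8 to 78.5%) and 37.3% in mature cells (31.0 to 43.9%). The immature interval lies above those of pro-B and mature cells and overlaps that of pre-B cells. In FPKM the immature share of Dnmt3a was 87.6% against 45.2 to 47.7% in the other libraries. That immature share rests on the same 35 counts of Dnmt3a and 17 of Dnmt1. From pre-B to immature cells the worth of 1 count went from 0.088 to 0.125 FPKM for Dnmt3a and from 0.0842 to 0.0365 FPKM for Dnmt1. Dnmt1 accordingly had 57.5, 55.9, 32.7 and 58.0% of the DNMT counts in the 4 stages. The genes nearest to Dnmt3a in profile were Slc30a4, Zfp330 and Tagln2.

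Dnmt3b, the other de novo methyltransferase, was scarce throughout. It had 8, 0, 0 and 10 counts, or 9.22, 0, 0 and 11.8 CPM. The pre-B and immature libraries could hold up to 12.5 and 13.4 CPM with 0 counts, which is above the levels in the other libraries, so no difference was detectable at this depth. The share of Dnmt3b in the DNMT counts reached 2.15% in pro-B cells (1.09 to 4.19%) and 4.72% in mature cells (2.58 to 8.46%), and these intervals overlap.

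**Figure D2:**
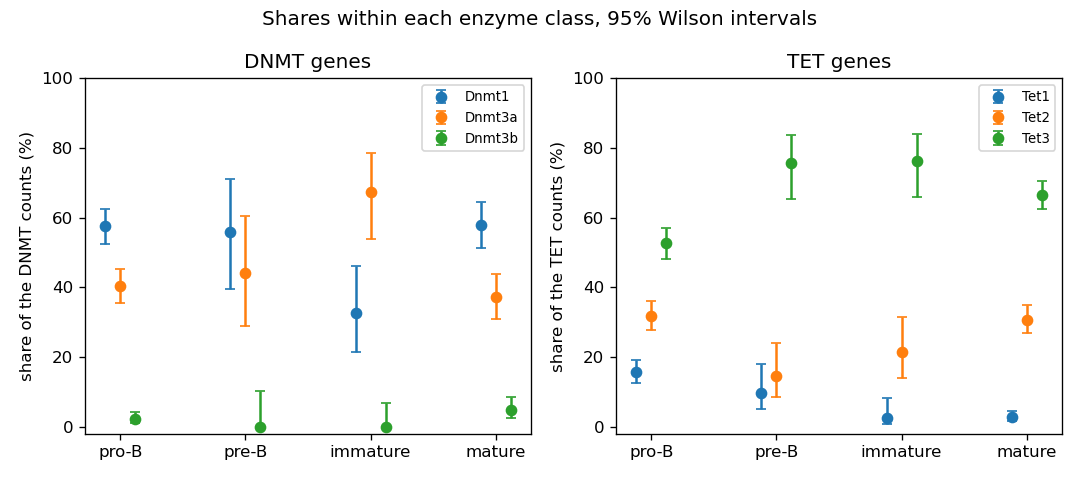
Share of each gene in the summed counts of the 3 DNMT genes (left) and the 3 TET genes (right), in percent, with 95% Wilson intervals, for the 1 library of each stage. Dnmt3a has 67.3% of the DNMT counts in immature cells against 37.3 to 44.1% elsewhere, and Tet1 goes from 15.6% of the TET counts in pro-B to 2.72% in mature cells.

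Among the TET genes, Tet3 had the most counts at every stage and the narrowest range. It had 250, 62, 64 and 342 counts, or 288, 258, 286 and 403 CPM. None of the 4 CPM comparisons reached 2-fold, and the mature level was 1.40-fold above the pro-B level (1.18- to 1.65-fold). That direction was not kept in FPKM, which was 11.65 in pro-B, 4.73 in pre-B, 1.75 in immature and 8.01 in mature cells. The genes nearest in profile were Selenok, Mfn2 and Csrnp1.

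Tet2 had a low middle, with 151, 12, 18 and 158 counts, or 174, 50.0, 80.5 and 186 CPM. Its pre-B level was 3.48-fold below the pro-B level (1.94- to 6.89-fold) and its mature level 2.31-fold above the immature level (1.41- to 4.0-fold). Pro-B and mature cells differed by 1.07-fold (0.850- to 1.35-fold), an interval that includes equality. The deposited FPKM of Tet2 did not follow its counts, since 1 count was worth 0.239 FPKM in pre-B and 0.0211 FPKM in immature cells. With FPKM rescaled to equal sums, the pre-B level was above the pro-B level (log2 ratio 0.20), so the low pre-B value of Tet2 holds for counts and not for that scale. Crnkl1, Strn3 and Iws1, which act in splicing, signalling scaffolds and transcription elongation, had the nearest profiles.

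Tet1 was lower at each later stage than in pro-B cells. It had 74, 8, 2 and 14 counts, or 85.3, 33.3, 8.95 and 16.5 CPM. The mature level was 5.17-fold lower than the pro-B level (2.90- to 9.92-fold) and the pre-B level 2.56-fold lower (1.23- to 6.15-fold). The ratio of pre-B to immature cells, 3.72-fold with an interval of 0.743- to 36-fold, rests on 2 counts in immature cells and includes equality. In FPKM the levels of 4.52, 0.10, 0.03 and 0.84 also put pro-B cells highest and immature cells lowest, with mature above pre-B cells.

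The makeup of the TET counts therefore differed between the ends of the series. Tet1 had 15.6% of the TET counts in pro-B cells (12.6 to 19.1%), 9.76% in pre-B (5.03 to 18.1%), 2.38% in immature (0.655 to 8.27%) and 2.72% in mature cells (1.63 to 4.52%). Tet3 had 52.6% in pro-B (48.1 to 57.1%), 75.6% in pre-B (65.3 to 83.6%), 76.2% in immature (66.1 to 84.0%) and 66.5% in mature cells (62.3 to 70.5%). The pro-B interval lies below those of the other 3 libraries for Tet3, and above those of immature and mature cells for Tet1. In FPKM the share of Tet1 was 18.7, 1.3, 1.39 and 5.72% from pro-B to mature cells, and that of Tet3 48.1, 61.4, 81.0 and 54.5%. The share of Tet2 was 31.8, 14.6, 21.4 and 30.7% in counts and 33.3, 37.3, 17.6 and 39.8% in FPKM, so its low pre-B share holds for counts alone. The genes nearest to Tet1 in profile were Tapt1, Mcm6 and Plcg1, of which Mcm6 is a subunit of the replicative helicase.

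Tdg, the glycosylase downstream of the TET enzymes, had 107, 9, 8 and 43 counts, or 123, 37.5, 35.8 and 50.6 CPM. Pro-B cells were high and the 3 later stages overlapped one another. The mature level was 2.44-fold lower than the pro-B level (1.69- to 3.55-fold), and FPKM of 14.28, 2.02, 1.70 and 5.34 put pro-B cells highest as well. Rcsd1, Bcl2l11 and Ncapd3 had the nearest profiles, of which Bcl2l11 encodes the pro-apoptotic protein BIM.

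Mbd2, the methyl-CpG reader, had 28, 2, 7 and 34 counts, or 32.3, 8.33, 31.3 and 40.0 CPM. Pro-B, immature and mature cells overlapped. The pre-B level was 3.88-fold lower than the pro-B level, with an interval of 0.977- to 33.6-fold that includes equality because it rests on 2 counts. Map3k1, Srp54c and Eif4g3 were nearest in profile.

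Between genes, levels were compared in FPKM within a library. In pro-B cells the order was Tdg at 14.28, Tet3 at 11.65, Tet2 at 8.06, Dnmt1 at 7.32, Uhrf1 at 7.25, Dnmt3a at 7.05, Tet1 at 4.52, Mbd2 at 3.54 and Dnmt3b at 0.41 FPKM. With the counting error of each gene, Tdg and Tet3 overlapped, as did the run from Tet2 to Dnmt3a neighbour by neighbour, and Tet1 with Mbd2. In mature cells Tet3 led at 8.01 FPKM, followed by Tet2 at 5.84, Tdg at 5.34, Mbd2 at 4.41, Dnmt1 at 4.31 and Dnmt3a at 4.04, with Tet1 at 0.84, Dnmt3b at 0.48 and Uhrf1 at 0.17. Here Tet3 stood apart from Tet2, the next 5 genes overlapped neighbour by neighbour, and Tet1 stood apart below them. Below it, Tet1 overlapped Dnmt3b, and Dnmt3b overlapped Uhrf1, which had 3 counts. By value Uhrf1 thus went from the fifth level of the 9 in pro-B cells to the ninth in mature cells. Neither rank was separated from those of its neighbours. Orders in pre-B and immature cells rest on 0 to 64 counts a gene, and only Dnmt3a above Tet3 and Tet2 above Tet1, both in immature cells, stood apart from their neighbours there.

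Set against all genes of the table, the 9 genes were placed as follows. A ratio counted as past the fold when CPM differed at least 2-fold between libraries, among genes with at least 10 counts in the 2 libraries together. From pro-B to pre-B, 7 of the 8 genes tested were lower (Dnmt1, Dnmt3a, Uhrf1, Tet1, Tet2, Tdg and Mbd2), 0 were higher and Tet3 was within the fold, where 29.6% of 9712 genes were lower and 17.9% higher. Their median log2 ratio was -1.68, against -0.35 for all genes tested. Genes with fewer counts pass a fold by counting error more often, and the pre-B counts of 6 of these 7 genes were 2 to 19, and 0 for Uhrf1.

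The size of this shift depended on the scale. The median log2 ratio of pre-B over pro-B of all genes was -0.35 in CPM and -2.18 in FPKM as deposited, since the FPKM sums were 75584 in pro-B and 23366 in pre-B cells. Relative to the median of its own scale, Uhrf1 stood at -3.28 or lower in CPM and -3.30 or lower in FPKM, both bounds from 3 counts, and Mbd2 at -1.61 and -1.53. Dnmt1 stood at -1.29 in CPM and -0.01 in FPKM, Dnmt3a at -1.12 and -0.24, and Tet2 at -1.45 and 0.69, so the low pre-B values of these 3 genes relative to other genes held in CPM and not in FPKM. Tet1 stood at -1.01 and -3.32, and Tdg at -1.37 and -0.64.

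From pre-B to immature cells, of 6 genes tested in CPM, 1 was higher (Dnmt3a) and 1 was lower (Tet1), where 18.5% of 7004 genes were higher and 18.9% lower. The median log2 ratio was 0.05 against -0.01 for all genes. With FPKM as deposited 4 of the 6 were lower (Dnmt1, Tet1, Tet2 and Tet3, at -1.37, -1.74, -2.92 and -1.43), where 1506 of 7004 genes were lower. From immature to mature cells, 1 of 8 genes tested was higher (Tet2) and 0 were lower, where 24.9% of 8992 genes were higher and 21.6% lower. The median was 0.50 against 0.16, with Dnmt3b, at 0 counts in immature cells, entered at a log2 ratio of 0. With FPKM as deposited 7 of these 8 genes were at least 2-fold higher in mature cells, on a scale where the median of all genes was 1.98. Dnmt3b was among the 7 only as a bound, with its immature library put at 3 counts.

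Mature against pro-B cells compares the libraries of greater depth, in which the scales moved the median of all genes little (-0.18 in CPM and -0.17 in FPKM). Uhrf1, Tet1 and Tdg were lower in mature cells, 3 of 9, and 0 were higher, where 23.6% of 10317 genes were lower and 13.3% higher. The count of lower genes was thus 1 in 3 of the genes against about 1 in 4 of the table. The median of the 9 was -0.77. Relative to the median of all genes, Uhrf1 was at -5.27 in CPM and -5.25 in FPKM, Tet1 at -2.19 and -2.26, and Tdg at -1.10 and -1.25. Tet2 at 0.28 and -0.30 and Tet3 at 0.66 and -0.37 changed sign between the scales, whereas Mbd2 at 0.49 and 0.48 did not.

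**Figure D3:**
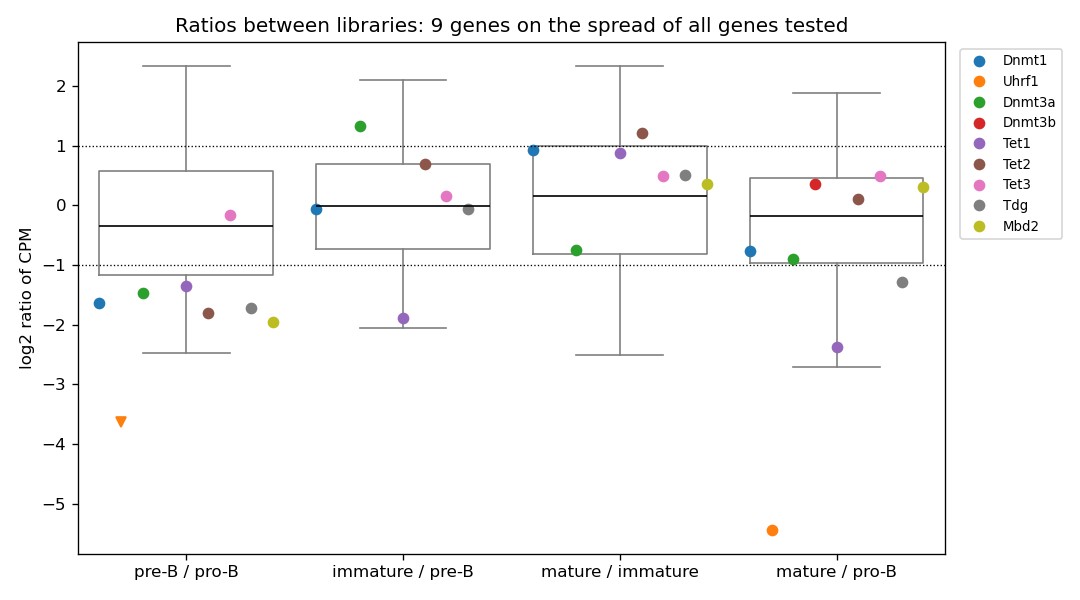
Log2 ratio of CPM between libraries (y axis) for the 4 comparisons (x axis). Boxes give the quartiles and median, and whiskers the 5th and 95th percentiles, of all genes with at least 10 counts in the 2 libraries, coloured points are the 9 genes where tested, the triangle is an upper bound, Dnmt3b has a value in mature over pro-B cells alone, and dotted lines mark 2-fold. Uhrf1 lies below the whisker in pre-B over pro-B and in mature over pro-B cells.

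**Figure D4:**
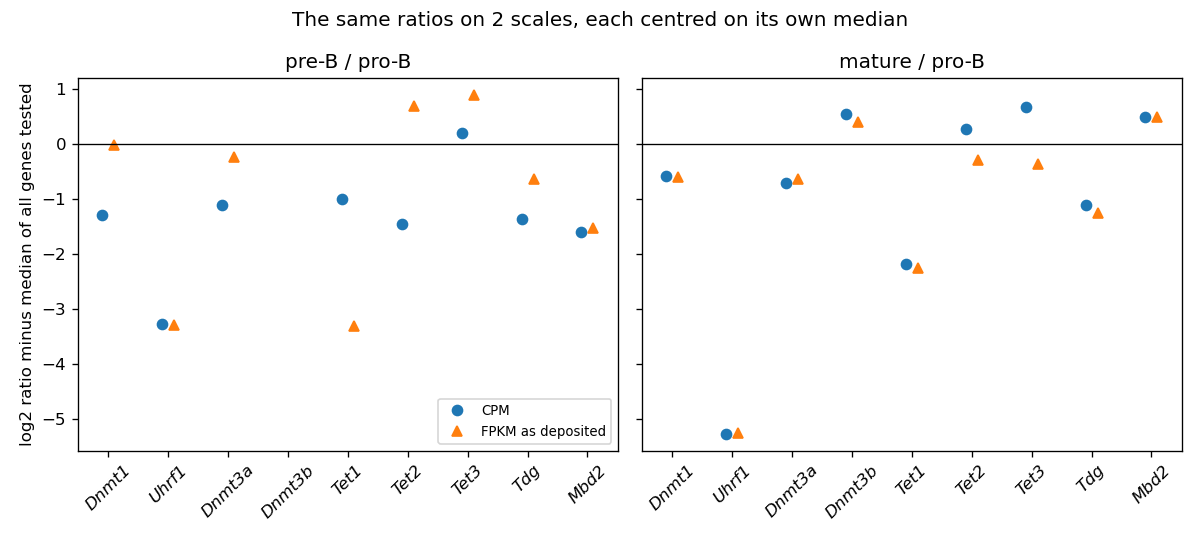
Log2 ratio of each gene minus the median of all genes tested (y axis) on the CPM scale (circles) and the FPKM scale as deposited (triangles), for pre-B over pro-B (left) and mature over pro-B cells (right); Dnmt3b was not tested on the left and Uhrf1 is an upper bound there. The scales part most for Dnmt1, Tet1 and Tet2 on the left, and less for Dnmt3a, Tdg and Tet3. They lie close for Uhrf1, Tet1 and Tdg on the right.

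The sums of the enzyme classes were compared as well. The 3 TET genes had 56.1% of the TET and DNMT counts in pro-B (52.7 to 59.4%), 70.7% in pre-B (61.9 to 78.2%), 61.8% in immature (53.4 to 69.5%) and 70.8% in mature cells (67.4 to 74.0%). The pro-B interval lies below those of pre-B and mature cells. In FPKM the shares were 62.1, 72.5, 30.3 and 62.5%, so the difference between pro-B and mature cells was seen in counts and not in FPKM.

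Partners of the 9 genes were taken from lists of known genes. Of the 11 partners of maintenance methylation, 6 of the 10 tested were lower in mature than in pro-B cells and 0 were higher, with a median log2 ratio of -1.11 against -0.18 for all genes. Among them were Hells, a chromatin remodeller (-1.71), Pcna, the replication clamp (-1.01), and Lig1, the replicative ligase (-1.45), whereas Usp7, a deubiquitinase that binds UHRF1 and DNMT1, was at -0.35. The lower share exceeds the 23.6% of the table, as it did for proliferation genes, of which 13 of 17 were lower and 0 higher with a median of -1.72. Mki67 was at -2.43, Mcm6 at -2.11 and Top2a at -1.62 in that list. Pcna stands in both lists.

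Between pro-B and pre-B cells 10 of 17 proliferation genes were lower and 2 higher, with a median of -1.21, where 29.6% of all genes were lower and 17.9% higher. Tyms, thymidylate synthase, was among the higher ones at 1.69. From immature to mature cells the median was 0.58, with 4 of 14 higher and 2 lower, where 24.9% of all genes were higher and 21.6% lower. The part of proliferation in the levels of Uhrf1, Dnmt1 and Tet1 was not tested. Of the 14 proliferation genes with a RefSeq window, 5 held the E2F letters, against 704 of all 27025 genes with a window (2.60%). Their median CpG number was 24.5, against 8 over all these genes, and the letters contain CG. This is a description and no test.

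In mature against pro-B cells most of the other lists were nearer to the table, but between pro-B and pre-B cells only some were. There 5 of 8 methyl-CpG readers were lower (median -1.3) and 6 of 10 NuRD partners (median -1.15), as were 6 of 10 maintenance partners (median -1.14), against 29.6% of all genes. Of the TET partners 5 of 12 were lower and 1 higher (median -0.94). Base excision repair genes had 3 of 12 lower and 4 higher (median 0.04). These lists share genes, so their counts are not separate. Hdac2 (-2.90) stands in the NuRD and maintenance lists. Mbd4 (-1.87) stands among the readers and Lig1 (-1.47) among the maintenance partners, and both also stand in the base excision repair list. For Trdmt1 and Trim28, the 2 tested genes of a further list, the median was 0.38. For mature against pro-B cells, 1 of 8 methyl-CpG readers besides Mbd2 was lower (Mbd3, -1.06) and the median was -0.005. Zbtb38, a zinc finger reader, was at 0.64. Of the NuRD partners of Mbd2, 0 of 10 were past the fold, and Chd3, a remodelling ATPase, was at -0.37. In the base excision repair list, 6 of 13 were lower, with Neil1, a glycosylase, at -1.13 and Parp1 at 0.21. Of the TET partners, 2 of 12 were lower, among them Idh2, the mitochondrial enzyme that makes the TET cosubstrate 2-oxoglutarate, at -1.48, and Ogt, which glycosylates TET partners, was at -0.81. In a list of 4 further genes of the pathway (Dnmt3l, Trdmt1, Zfp57 and Trim28), 2 were tested, 0 were past the fold, and Trdmt1, an RNA methyltransferase of the DNMT family, was at -0.97.

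The miRNAs were counted in the small RNA libraries, whose miRNA tags summed to 926605 in pro-B, 1673129 in pre-B, 2411323 in immature and 1226208 in mature cells. miR-29a-3p had 3269, 1668, 2402 and 12451 CPM of the miRNA total in this order. It was 5.18-fold higher in mature than in immature cells (5.03- to 5.34-fold), and miR-29b-3p was 9.26-fold higher (6.76- to 12.9-fold) and miR-29c-3p 4.46-fold higher (2.36- to 8.81-fold). Over the same step Dnmt3a was 1.68-fold lower in CPM, a direction that the mRNA and lncRNA total reverses, and Tet2 2.31-fold higher, and Dnmt3b was too scarce to compare. All 3 members of the family thus moved the same way, with the shared seed printed above.

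miR-148a-3p moved in the opposite direction. It had 4196, 2630, 2794 and 687 CPM and was 4.07-fold lower in mature than in immature cells (3.79- to 4.38-fold). miR-148b-3p was 1.44-fold lower (1.28- to 1.62-fold) and miR-152-3p 1.86-fold higher (1.25- to 2.76-fold), so the family with the seed CAGUGCA did not move as a whole. Dnmt1 was 1.90-fold higher over this step (1.14- to 3.37-fold).

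Of the 11 miRNAs examined, 5 were at least 2-fold higher and 1 lower in mature than in immature cells, where 36.2% of 712 miRNAs were higher and 21.8% lower. miR-101a-3p (6.55-fold) and miR-101b-3p (2.29-fold) were the other higher ones. In mature against pro-B cells 4 were higher (miR-29a-3p, miR-29b-3p, miR-22-3p and miR-101a-3p) and 2 lower (miR-148a-3p and miR-152-3p), where 14.8% of 742 miRNAs were higher and 48.1% lower. miR-22-3p, known to target TET mRNAs, was 2.06-fold higher in that comparison. miR-26a-5p, known to target TET mRNAs and Tdg, was the most abundant of the 11 in every library and stayed between 72365 and 85032 CPM, and miR-26b-5p ranged from 620 to 1309.

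**Figure D5:**
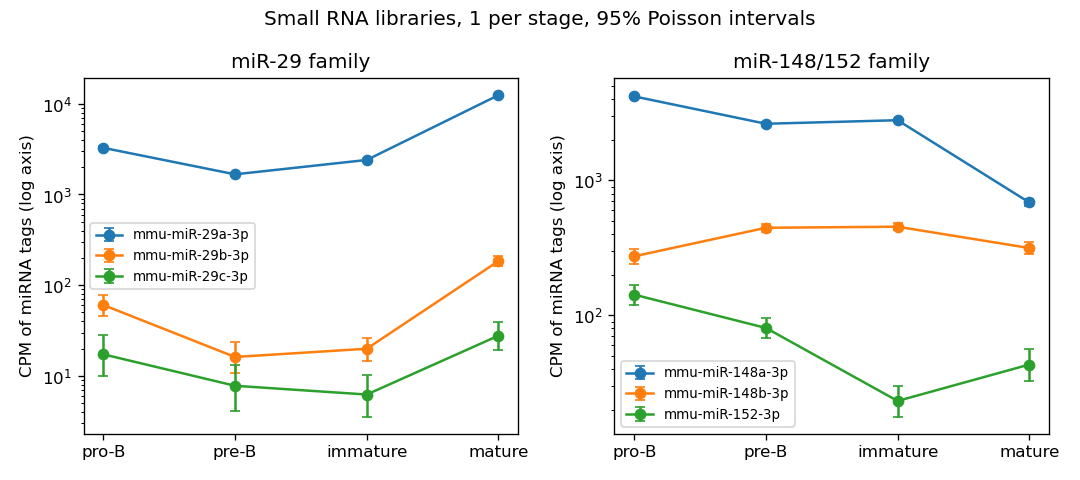
CPM of the miRNA total (y axes, log scale) of the miR-29 family (left) and the family of miR-148a-3p (right) in the 1 small RNA library of each stage (x axes), with 95% Poisson intervals. The 3 miR-29 members have their highest values in mature cells, and miR-148a-3p goes from 2794 in immature to 687 in mature cells. For miR-29c-3p the ratio of mature to pro-B cells is 1.61 (0.862 to 3.12), an interval that includes equality.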

How the data were processed

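RNA and small RNA of 4 sorted B-cell stages were sequenced, 1 library each per stage, and libraries were assigned to stages by their labels. Values for mRNAs and lncRNAs are estimated counts that the authors obtained with HISAT2 and StringTie and deposited without normalization, not all of them whole. The FPKM values deposited by the authors are scaled by length and mapped fragments, and the worth of 1 count in FPKM differed between libraries of the same gene. The miRNA table holds counts of tags and the circRNA table counts of back-spliced reads found with find_circ, both as deposited by the authors. The submitters' processing notes name mm9 and Bowtie 0.12.2 with no role. Of 963 circRNAs, 938 (97.4%) lay within 1000 bases of the RefSeq GRCm38.p6 span of their source gene, so their coordinates are given as in the table, with the build not settled.

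CPM used the column totals. Counts were rounded for the Poisson, Wilson and conditional Clopper-Pearson intervals (95%), and a count of 0 was put at 3 counts for a bound. A ratio was past the fold at 2 or more, with at least 10 counts in the 2 libraries. Profiles were compared as log2(CPM + 10), centred, by Euclidean distance over 4 libraries, for genes with at least 20 counts among the 9. Named are the 9 genes, the 3 nearest to each, the miRNAs and circRNAs, and from each list at most the 6 genes past the fold with the most counts. Mcm3 and Mcm4 of the proliferation list are named besides. Alternatives were TMM (edgeR 4.0.16), DESeq2 1.42.0 size factors, FPKM, other totals, count minima and folds. Intervals were computed with scipy 1.17.1 and tables with pandas 2.3.3 and numpy 2.4.6 (Python 3.11.15, R 4.3.3), figures were drawn with matplotlib 3.10.9, and the ratio code was tested on simulated data. The genes and lists were chosen with earlier results of these data known. Values of some genes of the lists are not reported here.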

Additional observations from a re-analysis of the deposited data

Results flagged for a closer look

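Signals from the 9 genes appeared in tables outside the mRNA comparison, above the 3 counts at which a count of 0 was put. A circRNA from 1 exon of Tet3, at chr6:83402667-83404824 on the minus strand in the authors' table, had 2, 1, 4 and 0 back-spliced reads in pro-B, pre-B, immature and mature cells, so its highest value was 4 in immature cells. A circRNA annotated as antisense to Uhrf1, at chr17:56309687-56309933 on the minus strand, had 4 reads in pre-B cells and 0 at each other stage, in the library where Uhrf1 mRNA had 0 counts. The libraries held 1370 to 1751 back-spliced reads each, and differences of this size were not detectable at this depth.

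In the lncRNA table, a transcript of Tet1 had 10.83 estimated counts at the pro-B stage and 0 at all later stages, where the Tet1 mRNA had 74 counts in pro-B cells. A transcript of Tdg had 5.42, 2, 4 and 7 estimated counts from pro-B to mature cells, with the highest value of 7 in mature cells. A transcript of Tet3 had 3.38 estimated counts in immature cells and 0 elsewhere. These transcripts carry the symbols of coding genes, and reads shared with the mRNAs were not separated here.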

How the results depend on the processing

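Every named ratio of the 9 genes kept its direction under TMM, DESeq2 size factors, 0.5 added to each count and the total without immunoglobulin, mitochondrial and top genes, except Tet3 in pre-B over pro-B cells, which was near 0 and went to 0.02 with DESeq2 size factors and 0.03 with that total. Past the fold, Tet2 in pre-B over pro-B cells reversed with FPKM rescaled to equal sums (log2 ratio 0.20), and the number of lower genes there was 4 of 8 instead of 7. From pre-B to immature cells the number of higher genes among the 9 was 2 with no count filter, 2 at a fold of 1.5 and 0 at a fold of 3, and of lower genes 4 with FPKM, 4 with rescaled FPKM and 0 with at least 30 counts. From immature to mature cells the higher genes numbered 2 with TMM, 2 with 0.5 added, 3 at a fold of 1.5, 0 at a fold of 3, 3 with rescaled FPKM, 7 with FPKM and 8 with the mRNA and lncRNA total, which was added after seeing the data, and the lower genes 1 with rescaled FPKM and 1 at a fold of 1.5. Dnmt3b, at 0 counts in immature cells, was among these higher genes with 0.5 added, with FPKM and with the mRNA and lncRNA total. For mature over pro-B cells, 5 genes were lower at a fold of 1.5.

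Over all genes, pre-B over pro-B had 299 higher and 7652 lower with FPKM, 254 and 7826 with the mRNA and lncRNA total, and 1003 and 1551 at a fold of 3, with 3072 higher unfiltered and 889 at 30 counts. Immature over pre-B had 402 higher and 457 lower at 30 counts, 2071 and 2055 at a fold of 1.5, and 719 and 769 at a fold of 3, with 2042 higher unfiltered. Mature over immature had 6646 higher and 349 lower with FPKM, 6808 and 334 with the mRNA and lncRNA total, and 1186 and 1173 at a fold of 3, with 3530 lower unfiltered and 906 at 30 counts. Mature over pro-B had 818 higher and 1450 lower at 30 counts and 707 and 1539 at a fold of 3, with 2210 higher at a fold of 1.5. The cause of these shifts was not tested beyond the filters and folds themselves.

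No paired analysis was possible because each stage has 1 library and no result comes from a test. Leaving out a replicate was not possible for the same reason. Pre-B and immature values rest on 0 to 64 counts a gene, so differences of small size were not detectable there.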
